A study of Mus musculus with 2 samples.

Results

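The genes described here are 10 genes of the Wnt signalling pathway, chosen by name out of the 32285 genes in the count tables. They are the secreted ligands Wnt2 and Wnt9b, the R-spondin Rspo3, the Wnt secretion factor Wls, the receptor Fzd4, the co-receptor Lrp5, the feedback inhibitors Axin2, Nkd1 and Apcdd1, and the Dickkopf family protein Dkk3. Their transcripts were followed in endothelial cells of the mouse liver at postnatal day 15 (Wnt2 on build GRCm38 at chr6:17988940-18030585, Wnt9b at chr11:103727364-103749821 and Rspo3 at chr10:29452416-29535867, all on the minus strand), in the 7 clusters that the deposited annotation names KOS_1, KOS_2, KOS_3, S, S2, PV and C-EC. These clusters held 2991 of the 8166 annotated cells of the c-Maf KO library and 2948 of the 7669 annotated cells of the control library. All 10 genes had unique molecular identifiers (UMIs, each standing for 1 captured transcript molecule) in endothelial cells of both libraries.

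Wnt ligands are lipid-modified proteins that leave the cell with the help of Wls, bind Frizzled receptors together with Lrp5 or Lrp6, and stabilise beta-catenin in the receiving cell. R-spondins amplify this signal by keeping Frizzled receptors at the cell surface. In the liver, the endothelium of the sinusoids and of the central vein is a main source of Wnt2, Wnt9b and Rspo3, which maintain the gene programme of the hepatocytes around the central vein. Axin2, Nkd1 and Apcdd1 are widely used as transcriptional readouts of the pathway in receiving cells, and their products dampen it.

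The c-Maf KO library came from mice that the sample titles call c-Maf KO endothelial cell mice, and the control library from mice called control. c-Maf, encoded by Maf, is a basic leucine zipper transcription factor. Each library pooled sorted endothelial and hematopoietic cells from the livers of 1 male and 1 female mouse and was captured on the 10X Chromium, a droplet system. The allele, the driver of the deletion and the sort markers are not stated in the labels used here. With 1 library per group, no difference below has a replicate check and no p-value was computed. Each comparison is between these 2 libraries, and each 95% interval covers counting error only.

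The endothelial cells held 22621086 UMIs (median 7320 per cell) in the c-Maf KO library and 16238502 UMIs (median 4985.5 per cell) in the control library. All 6 endothelial markers (Pecam1, Cdh5, Kdr, Tek, Egfl7 and Eng) were detected, at a summed level of 5122.2 CPM (UMIs of a gene over all UMIs of the same cells, on the counts-per-1e6 scale) in c-Maf KO endothelial cells and 6891.8 CPM in control endothelial cells. The 8 sinusoidal markers summed to 3106.7 CPM in c-Maf KO endothelial cells and 10918.0 CPM in control endothelial cells. KOS_1, KOS_2 and KOS_3 held 1356, 518 and 238 c-Maf KO cells, against 1, 21 and 2 control cells. S and S2 held 223 and 113 c-Maf KO cells, against 1320 and 1459 control cells. PV, with the markers of large vessels, held 135 c-Maf KO and 56 control cells, and C-EC, with the markers of cycling cells, held 408 c-Maf KO and 89 control cells. KOS_2 was shallow, at a median of 1644.5 UMIs in c-Maf KO cells, and its 5 megakaryocyte markers summed to 915.3 CPM. Transcripts of other cell types differed in both directions. The 12 stellate and mesenchymal markers, none of them at 0, summed to 103.1 CPM in c-Maf KO and 251.6 CPM in control endothelial cells, and the 7 Kupffer cell markers to 30.0 and 304.2 CPM in c-Maf KO and control cells. The 5 B lineage markers summed to 84.9 CPM in c-Maf KO and 40.7 CPM in control endothelial cells. Most of the stellate sum came from Hgf (44.5 and 125.6 CPM in c-Maf KO and control cells) and Ecm1 (29.0 and 62.4 CPM). A UMI of a stellate marker was found in 36.6% of c-Maf KO and 51.8% of control endothelial cells, and in 74.3% of control S2 cells. Leaving such cells out thus removes a large part of the endothelial cells, and the origin of these UMIs was not tested. For stellate transcripts, calls that changed without the cells that carry them are given with the results, and the part of the others was not tested.

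Maf stood at 161.7 CPM in c-Maf KO endothelial cells and 2070.1 CPM in control endothelial cells. The remaining Maf UMIs of the c-Maf KO library lay mostly in its S and S2 cells, at 1456.7 and 1998.4 CPM, close to the 1577.8 and 2327.4 CPM of control S and S2 cells. In KOS_1 Maf was at 9.32 CPM. In PV it was at 39.4 CPM in c-Maf KO and 228.0 CPM in control cells, and in C-EC at 39.9 CPM in c-Maf KO and 1381.8 CPM in control cells. Comparisons within S and S2 are thus between cells that both carried Maf transcripts.

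For 6 of the 10 genes (Wnt2, Wnt9b, Wls, Fzd4, Axin2 and Nkd1) the RefSeq table of promoters on build GRCm38.p6 held a sequence, running from 250 bases before the annotated start to 50 bases after it. Each was searched on both strands for TGCTGAC, which is only a part of a Maf recognition element, and for CTTTGAT, the core of a TCF/LEF element. The matches of each motif were counted separately. Of all 32544 distinct promoter sequences in the table, 4.65% held TGCTGAC and 3.73% held CTTTGAT. Among the 6 promoters 1 match was found, a TGCTGAC starting 144 bases before the start of Wnt9b on the strand of the gene. The promoters of the 2 Wnt ligands are shown, of which Wnt2 had no match in this window and Wnt9b had 1. Control of either gene by c-Maf was not tested. A match is a description of letters and not of binding. Both genes lie on the minus strand, Wnt2 at chr6:18030396-18030695 and Wnt9b at chr11:103749772-103750071 for the windows printed here, and capitals mark the match.
Wnt2: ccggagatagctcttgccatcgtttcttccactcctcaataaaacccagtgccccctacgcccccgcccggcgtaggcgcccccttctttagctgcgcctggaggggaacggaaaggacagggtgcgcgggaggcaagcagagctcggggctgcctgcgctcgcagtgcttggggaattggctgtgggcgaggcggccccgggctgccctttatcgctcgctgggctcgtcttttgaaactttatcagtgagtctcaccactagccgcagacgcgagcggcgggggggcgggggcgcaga
Wnt9b: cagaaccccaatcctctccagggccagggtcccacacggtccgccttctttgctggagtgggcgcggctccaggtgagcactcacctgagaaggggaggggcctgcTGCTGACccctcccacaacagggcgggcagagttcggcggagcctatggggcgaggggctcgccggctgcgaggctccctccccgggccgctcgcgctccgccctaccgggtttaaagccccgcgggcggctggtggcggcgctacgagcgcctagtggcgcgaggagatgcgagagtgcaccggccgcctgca

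Over all endothelial cells, 7 of the 10 genes had lower levels in c-Maf KO cells, 1 was higher and 2 were called neither way. A gene was called when its level differed by 1.5-fold or more, its 95% interval left out equality and both libraries together held at least 50 UMIs. The lower genes were Wnt2, Rspo3, Wls, Lrp5, Axin2, Nkd1 and Dkk3, the higher one was Apcdd1, and Wnt9b and Fzd4 were called neither way. Of the 11927 genes with enough UMIs, 15.5% were called lower and 14.2% higher by the same rule. The median log2 ratio (c-Maf KO over control) was -1.08 over the 10 genes and -0.08 over all 11927 genes.

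**Figure D1:**
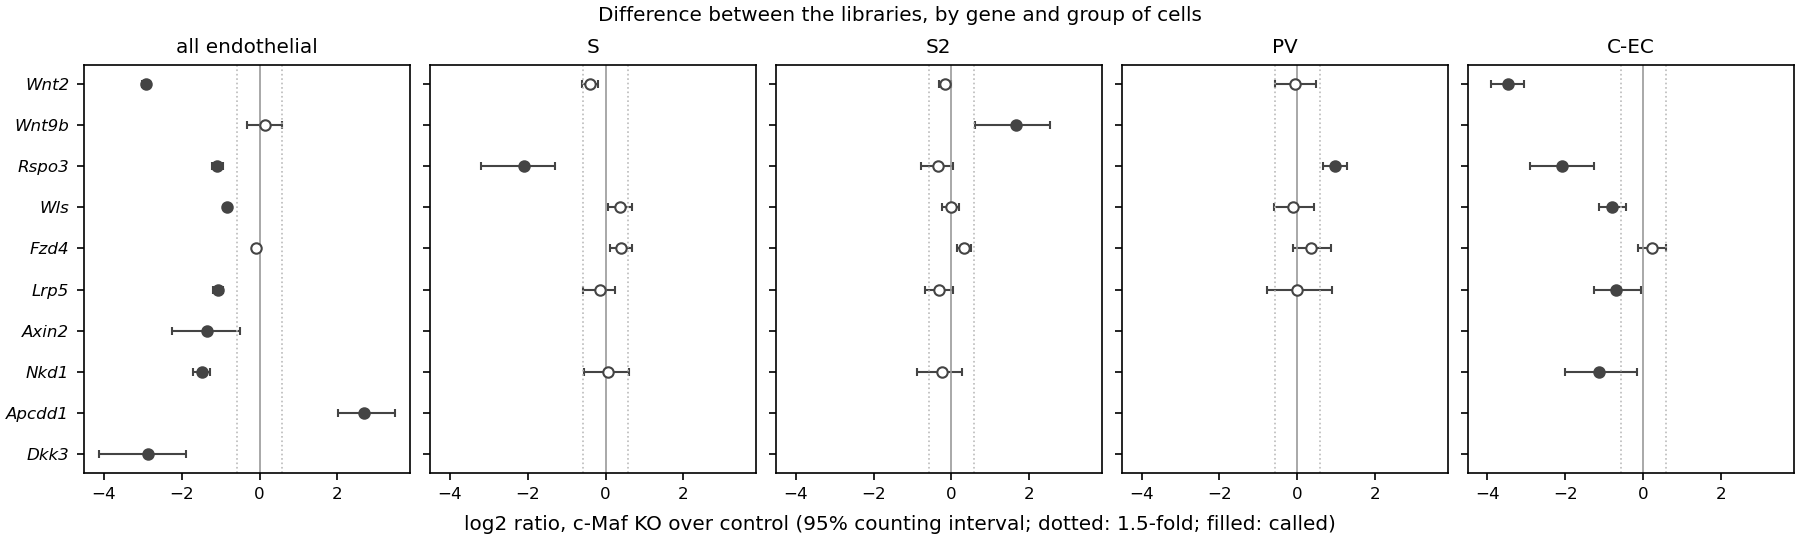
Log2 ratio (c-Maf KO over control) for each gene in all endothelial cells and within the clusters that held at least 50 cells of each library. Points are ratios of summed UMIs with 95% counting intervals, filled where the gene was called, and genes with fewer than 50 UMIs in a comparison are not drawn. Wnt2 lies at -2.91 over all endothelial cells and -3.48 in C-EC, but at -0.39, -0.17 and -0.07 in S, S2 and PV.

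Wnt2 had the largest fall of the 3 ligands. It stood at 49.2 CPM (95% interval 46.3 to 52.1) in c-Maf KO endothelial cells and 370.1 CPM (360.8 to 379.6) in control endothelial cells, a log2 ratio of -2.91 (-3.01 to -2.82), or 7.53-fold lower. A Wnt2 UMI was found in 15.4% of c-Maf KO endothelial cells and 55.5% of control endothelial cells, and in 4.71% and 28.1% of c-Maf KO and control cells when each cell was thinned to 1128 UMIs. In B lineage cells, which are not known to make Wnt2 and were taken as a background, 0.246% of c-Maf KO and 1.38% of control cells had a Wnt2 UMI, at median depths of 2990 and 3662.5 UMIs. The source of these UMIs was not tested. The endothelial shares were well above that background in both libraries.

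Wnt2 differed widely between clusters of both libraries. It was highest in S2, at 362.2 CPM in c-Maf KO and 408.7 CPM in control cells. In S it was 231.1 CPM in c-Maf KO and 302.7 CPM in control cells, and in PV 99.4 CPM in c-Maf KO and 103.7 CPM in control cells. Of the groups with at least 50 cells, the 4 lowest were all c-Maf KO groups, with 22.5 CPM in KOS_1, 22.3 in KOS_3, 21.4 in KOS_2 and 20.2 in C-EC. The counting intervals of these 4 overlapped, as did those of the libraries in PV and in S2, and those of c-Maf KO S and control C-EC. Of the 4 clusters compared, with all their cells, Wnt2 was called lower in C-EC, at 20.2 CPM in c-Maf KO and 227.4 CPM in control C-EC cells (log2 ratio -3.48, -3.92 to -3.07). In S the ratio was -0.39 (-0.61 to -0.18), in S2 -0.17 (-0.33 to -0.02) and in PV -0.07 (-0.57 to 0.47), all under 1.5-fold. The PV ratio was -0.72 (-1.54 to 0.16) without cells with a stellate marker UMI, and -1.06 (-1.70 to -0.42, 87 UMIs) in PV cells typed as female by Xist, which meets the rule for lower. S and S2 made up 7.46% and 3.78% of the c-Maf KO endothelial cells and held 19.6% and 31.7% of their Wnt2 UMIs. Without the c-Maf KO cells of S and S2, the endothelial log2 ratio of Wnt2 was -3.82.

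**Figure D2:**
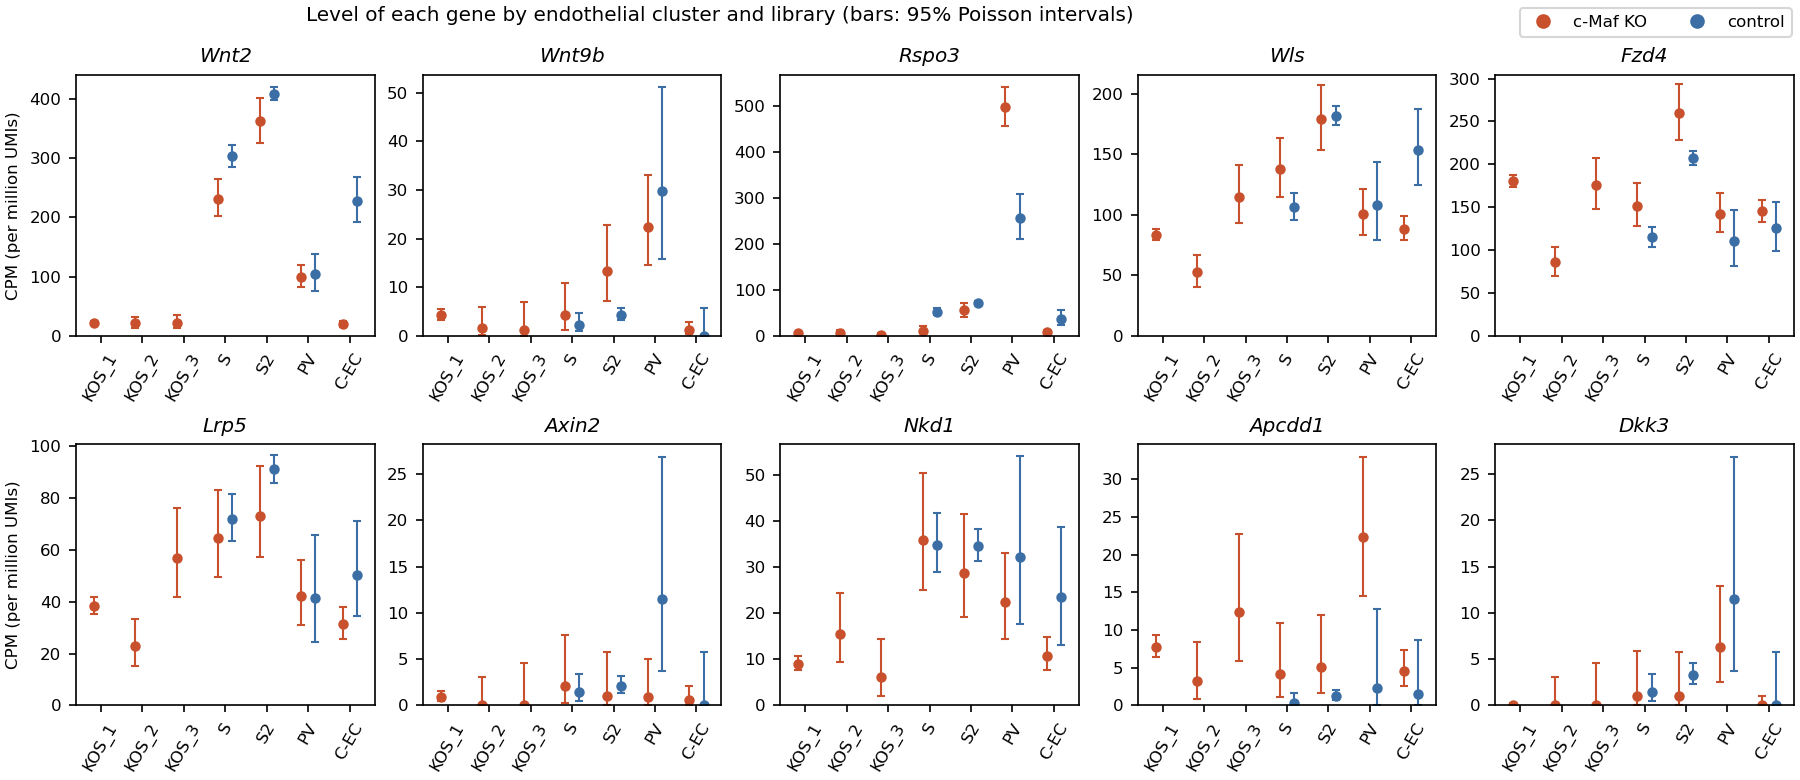
Level in CPM of each of the 10 genes (1 panel per gene, each with its own linear axis from 0) by endothelial cluster, for c-Maf KO and control cells. Points are levels of summed UMIs with 95% Poisson intervals, and groups under 50 cells are not drawn. Wnt2 is near 20 CPM in KOS_1, KOS_2, KOS_3 and c-Maf KO C-EC, and Rspo3 is highest in PV, at 497.7 CPM in c-Maf KO and 255.7 CPM in control cells.

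The 83 KOS_1 cells with a Maf UMI had Wnt2 at 20.8 CPM (12.7 to 32.1), and the 1273 KOS_1 cells without one at 22.6 CPM (20.1 to 25.3), so that the levels overlapped. In c-Maf KO C-EC the 30 cells with a Maf UMI had 83.4 CPM (53.4 to 124.1) and the 378 cells without one 14.6 CPM (10.7 to 19.4), which do not overlap. For comparison, Maf stood at 18.4 CPM in c-Maf KO B lineage cells, above its level in KOS_1.

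Rspo3 fell over all endothelial cells, to 33.2 CPM (751 UMIs) in c-Maf KO cells, against 70.5 CPM (1145 UMIs) in control cells, a log2 ratio of -1.09 (-1.22 to -0.95), and of -2.25 without cells with a stellate marker UMI. It was called lower in some clusters and higher in PV. In the sinusoid-named clusters together (KOS_1, KOS_2, KOS_3, S and S2) Rspo3 stood at 9.11 CPM in c-Maf KO and 66.6 CPM in control cells (log2 ratio -2.87, -3.12 to -2.63). In PV it was higher, at 497.7 CPM (457.2 to 540.8) in c-Maf KO and 255.7 CPM (210.3 to 307.9) in control cells (log2 ratio 0.96, 0.66 to 1.27). In C-EC it was lower, at 8.84 CPM in c-Maf KO and 37.6 CPM in control cells (-2.10, -2.91 to -1.26), and in S at 11.7 and 52.1 CPM in c-Maf KO and control cells (-2.10, -3.19 to -1.29). The S value rested on 11 UMIs from 2 of 223 c-Maf KO cells, 9 of them in 1 cell. In S2 the ratio was -0.34 (-0.78 to 0.04). Without the richest cell of each library it was -0.78, called lower, and in S -4.16.

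A Rspo3 UMI was found in 2.88% of c-Maf KO and 8.11% of control endothelial cells. PV cells made up 4.51% of c-Maf KO endothelial cells and held 74.0% of their Rspo3 UMIs. In the control library PV cells made up 1.90% and held 9.69%, while S2 cells held 72.7%. The 10 c-Maf KO cells richest in Rspo3, with 26 to 72 UMIs each, were all PV cells and held 55.1% of the UMIs. In the control library, of the 10 richest cells, with 22 to 51 UMIs each, 8 were S2 and 2 were PV cells, and they held 31.2%. All the cells of both sets had a Pecam1 and a Cdh5 UMI, and a Wnt2 UMI was found in 9 of the 10 c-Maf KO cells and all 10 control cells. A UMI of a stellate marker was found in 7 of the 10 c-Maf KO cells and 7 of the 10 control cells. Within PV, 21 of 135 c-Maf KO and 5 of 56 control cells had a Rspo3 UMI (15.6%, interval 9.89 to 22.8, and 8.93%, 2.96 to 19.6), and 45 of the 111 control UMIs lay in 1 cell. Without PV cells with a stellate marker UMI the PV log2 ratio was -0.04, and the 12 stellate markers summed to 594.4 CPM in c-Maf KO and 1446.5 CPM in control PV cells.

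**Figure D3:**
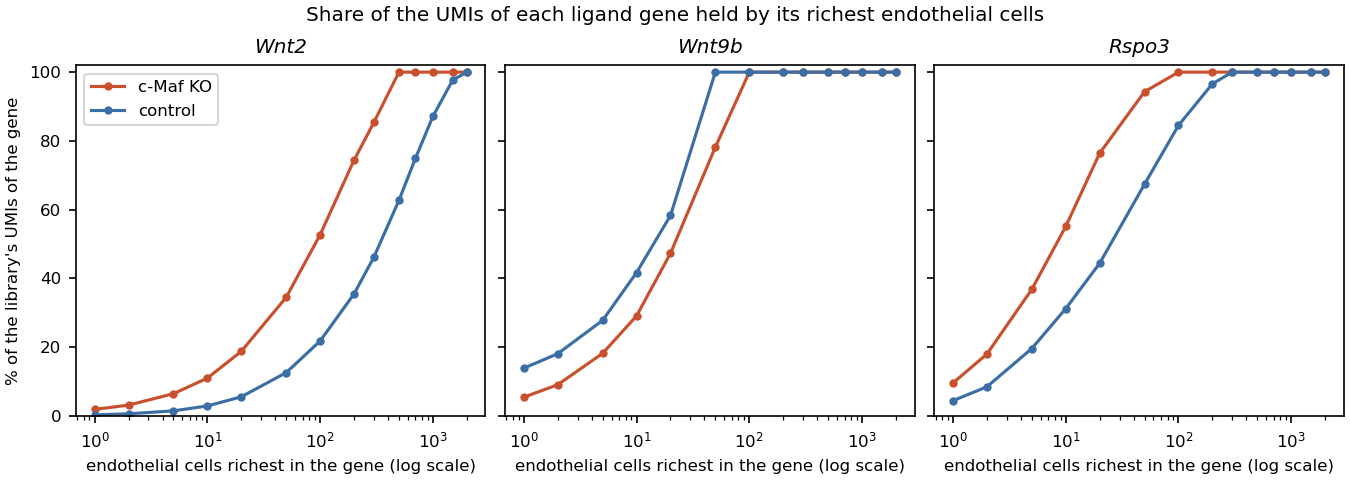
Cumulative share of the UMIs of Wnt2, Wnt9b and Rspo3 held by the endothelial cells richest in each gene, against the number of such cells on a log scale, for c-Maf KO and control cells. The 10 richest cells hold 11.0% of Wnt2 UMIs in c-Maf KO and 2.90% in control cells, and 55.1% of Rspo3 UMIs in c-Maf KO and 31.2% in control cells.

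Wnt9b had the fewest UMIs of the 3 ligand genes, with 110 UMIs (4.86 CPM) in c-Maf KO and 72 UMIs (4.43 CPM) in control endothelial cells, a log2 ratio of 0.13 (-0.31 to 0.58). It had a UMI in 2.47% of c-Maf KO and 1.70% of control endothelial cells, against 0.0409% of c-Maf KO and 0.0573% of control B lineage cells. PV had its highest level, at 22.4 CPM (14.5 to 33.0) in c-Maf KO and 29.9 CPM (15.9 to 51.2) in control cells, which overlap. In control PV, 10 of the 13 UMIs came from 1 cell. In KOS_1 it stood at 4.34 CPM (3.32 to 5.57), within the interval of control S2 at 4.36 CPM (3.25 to 5.73). Wnt9b was called higher in S2, from 13 UMIs in 7 of 113 c-Maf KO cells and 51 UMIs in 40 of 1459 control cells (log2 ratio 1.66, 0.61 to 2.52). Without the richest cell of each library that ratio was 1.25 and no longer called, and without cells with a stellate marker UMI 19 UMIs were left, too few for a call. By sex-linked genes, the typed S2 cells were 111 female and 0 male in c-Maf KO, while 59.2% were male in control. In female-type cells of S and S2 together the Wnt9b ratio was 0.86 (-0.18 to 1.80) from 42 UMIs, too few for a call. C-EC had 4 Wnt9b UMIs in c-Maf KO cells and 0 of 637591 UMIs in control cells, which allows up to 4.71 CPM.

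Within S, of the 6 of the 10 genes with enough UMIs, 0 were higher and 1 was lower (Rspo3), beside 6.24% of 7689 genes higher and 2.55% lower. Without cells with a stellate marker UMI Fzd4 was also called, as higher (0.62, 246 UMIs). Within S2, of 7 genes, 1 was higher (Wnt9b) and 0 were lower, beside 3.36% of 10012 genes higher and 3.34% lower. Without cells with a stellate marker UMI the call of Wnt9b was lost and Lrp5 was called lower (-0.78, 241 UMIs). Within PV, of 5 genes, 1 was higher (Rspo3) and 0 were lower, beside 6.08% of 5063 genes higher and 6.26% lower. Without cells with a stellate marker UMI the call of Rspo3 was lost and Lrp5 had 24 UMIs, too few for a call. Within C-EC, of 6 genes, 0 were higher and 5 were lower (Wnt2, Rspo3, Wls, Lrp5 and Nkd1), beside 5.70% of 7961 genes higher and 14.6% lower. Of these 5 calls, only that of Wnt2 held both without the richest cell of each library and without cells with a stellate marker UMI: Lrp5 was at -0.52 without the richest cell and -0.44 without stellate marker cells, Wls at -0.45 without stellate marker cells, and Rspo3 and Nkd1 had under 50 UMIs in both. The median log2 ratio of the genes with enough UMIs was -0.04 in S, -0.17 in S2, 0.00 in PV and -0.97 in C-EC, beside 0.08, 0.01, 0.04 and -0.15 over all genes in the same clusters.

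Most endothelial cells had none of the 3 ligands or 1 of them, and a few had several. Of all endothelial cells, 89 of 2991 c-Maf KO cells (2.98%, 2.40 to 3.65) and 227 of 2948 control cells (7.70%, 6.76 to 8.72) had UMIs of at least 2 of Wnt2, Wnt9b and Rspo3. All 3 were found in 24 c-Maf KO cells (0.802%, 0.515 to 1.19) and 28 control cells (0.950%, 0.632 to 1.37), shares that overlap. None of the 3 was found in 83.0% of c-Maf KO and 43.4% of control endothelial cells. In B lineage cells 0 of 2443 c-Maf KO and 0 of 1744 control cells had 2 of them. Of the 24 c-Maf KO cells with all 3, 11 were PV, 8 were KOS_1, 4 were S2 cells and 1 was a C-EC cell. Of the 28 control cells with all 3, 23 were S2, 3 were PV and 2 were S cells.

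A Wnt2 UMI was found in 60 of 86 c-Maf KO cells with a Rspo3 UMI (69.8%, 58.9 to 79.2), against 402 of 2905 c-Maf KO cells without one (13.8%, 12.6 to 15.1). In control cells it was found in 207 of 239 cells with a Rspo3 UMI (86.6%, 81.6 to 90.7), against 1429 of 2709 without one (52.8%, 50.8 to 54.6). Cells with a Rspo3 UMI were deeper, at a median of 10235.5 UMIs against 7215 without one in c-Maf KO cells, and 7153 against 4775 in control cells. The same shares were therefore taken after drawing 1128 UMIs (the 10th percentile of depth) from every endothelial cell that had as many. This left out 231 c-Maf KO and 363 control cells. After thinning, a Wnt2 UMI was found in 16 of 36 c-Maf KO cells with a Rspo3 UMI (44.4%, 27.9 to 61.9), against 4.19% of 2724 without one, and in 61 of 108 control cells with a Rspo3 UMI (56.5%, 46.6 to 66.0), against 26.9% of 2477 without one. In control S and S2 together the thinned shares were 57.3% of 103 cells with and 27.9% of 2327 cells without a Rspo3 UMI. In c-Maf KO PV the ligands fell into few cells: of 25 cells with a Wnt2 UMI, 18 had Rspo3 and 14 had Wnt9b, whereas of 110 without one, 3 had Rspo3 and 0 had Wnt9b, which allows a share of up to 2.73%.

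**Figure D4:**
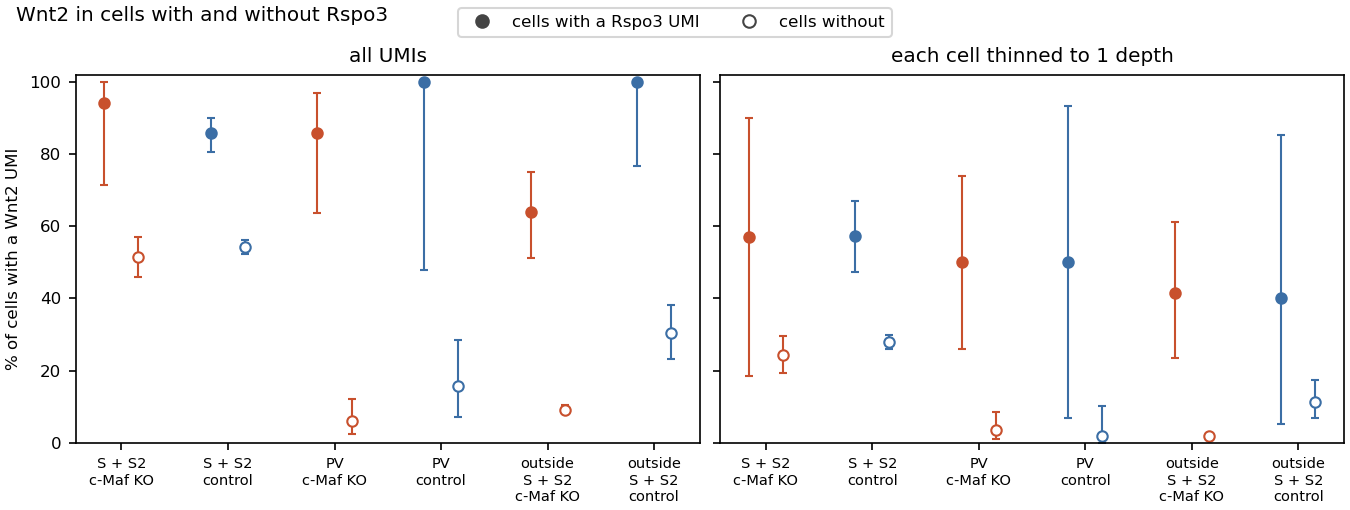
Percent of cells with a Wnt2 UMI among cells with a Rspo3 UMI (filled) and without one (open), with 95% exact binomial intervals, for S and S2 together, PV, and all endothelial cells outside S and S2, each in c-Maf KO and control cells. The left panel uses all UMIs and the right panel cells thinned to 1128 UMIs, where cells with a Rspo3 UMI had Wnt2 in 57.3% and cells without one in 27.9% of control S and S2 cells.

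In control S and S2, cells with a Rspo3 UMI carried, as a sum, more transcripts of genes known from the central end of the sinusoid and fewer of those from the portal end. In c-Maf KO S and S2 the 7 cells with a Rspo3 UMI went the same way, at 1.10 (0.63 to 1.52) for the central and -1.76 (-4.26 to -0.42) for the portal list. In the other groups the size of the central difference depended on the cluster. The lists held 11 central genes (among them Kit, Cdh13, Thbd and Fabp4) and 12 portal genes (among them Dll4, Efnb2, Msr1 and Ntn4), without the ligands, and all values are from thinned cells. In c-Maf KO endothelial cells outside S and S2 the central list summed to 4677.2 CPM in 29 cells with a Rspo3 UMI and 1748.3 CPM in 2440 cells without (log2 ratio 1.42, 1.18 to 1.65), and the portal list to 336.3 and 1115.8 CPM in cells with and without it (-1.67, -2.73 to -0.89). Of those 29 cells 18 were PV cells, and PV was high in the central list with or without Rspo3, so that this value mixes clusters. Within KOS_1 the central list summed to 4321.8 CPM in 8 cells with a Rspo3 UMI and 1673.7 CPM in 1348 cells without (1.39, 0.87 to 1.82). The portal list had 0 UMIs in those 8 cells and 1782 UMIs in the others (-4.40, upper limit -1.52). In control endothelial cells outside S and S2, where 5 cells had a Rspo3 UMI and 150 had none, the ratio was 0.32 (-0.22 to 0.79) for the central and -0.92 (-2.97 to 0.29) for the portal list, both with intervals that include no difference. In control S and S2 the central list summed to 6911.5 CPM in 103 cells with a Rspo3 UMI and 3060.7 CPM in 2327 cells without (1.18, 1.07 to 1.28), and the portal list to 946.8 and 1832.9 CPM in cells with and without it (-0.95, -1.24 to -0.68). Fabp4 gave 507 of the 803 central UMIs with Rspo3 and 4803 of the 8034 without. Cdh13, Thbd, Ptgs1, Lhx6, Ackr4, Selp and Lfng were also higher, while Kit, Rab3b and Lgals1 had intervals that include no difference. Of the portal genes, only Ltbp4, Msr1 and Adam23 were lower with intervals that left out equality. With Wnt2 in place of Rspo3 the differences in control S and S2 were smaller, at 0.56 (0.49 to 0.62) for the central and -0.28 (-0.38 to -0.19) for the portal list. In c-Maf KO S and S2 they were 0.49 (0.28 to 0.69) and -0.26 (-0.60 to 0.05) for Wnt2. The portal genes did not all follow their sum: in control S and S2, Gja4 was higher with Wnt2 (0.46, 0.09 to 0.81). Dll4, Efnb2, Ltbp4, Msr1, Ntn4 and Adam23 were lower there, with intervals that left out equality. Outside S and S2 the central list was 0.72 (0.49 to 0.92) with Wnt2 in c-Maf KO cells and -0.41 (-0.76 to -0.10) in control cells, the opposite direction, and in KOS_1 it was -0.06 (-0.58 to 0.39). Whether these associations differ between the libraries was not tested.

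Within c-Maf KO PV the 18 cells with a Rspo3 UMI and the 117 without one differed little in the summed central list, at 5220.6 and 4531.1 CPM (0.21, -0.11 to 0.50). Most of these UMIs were of Fabp4, with 68 and 483 UMIs in cells with and without Rspo3 (-0.12, -0.52 to 0.24). Ptgs1 (1.82, 0.43 to 3.03), Lhx6 (2.15, 0.34 to 3.77) and Lgals1 (1.74, 0.27 to 3.01) were higher with Rspo3, on 9, 6 and 8 UMIs there. No central gene was lower with an interval that left out equality. The portal list summed to 394.0 CPM in the cells with Rspo3 and 2894.5 CPM in those without (-2.79, -4.10 to -1.88). The 6 large vessel markers, of which Ltbp4 and Sox17 are also on the portal list, summed to 6845.9 and 2993.0 CPM in cells with and without Rspo3 (1.20, 0.90 to 1.48). Ltbp4 (1 UMI with and 130 UMIs without Rspo3, -3.74, -9.64 to -1.82) and Sox17 (1 and 25 UMIs, -1.39, -7.30 to 0.67) went against this sum. The c-Maf KO PV cells with Rspo3 were thus high in the large vessel markers as a sum, though not in each of them, and low in the summed portal list.

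**Figure D5:**
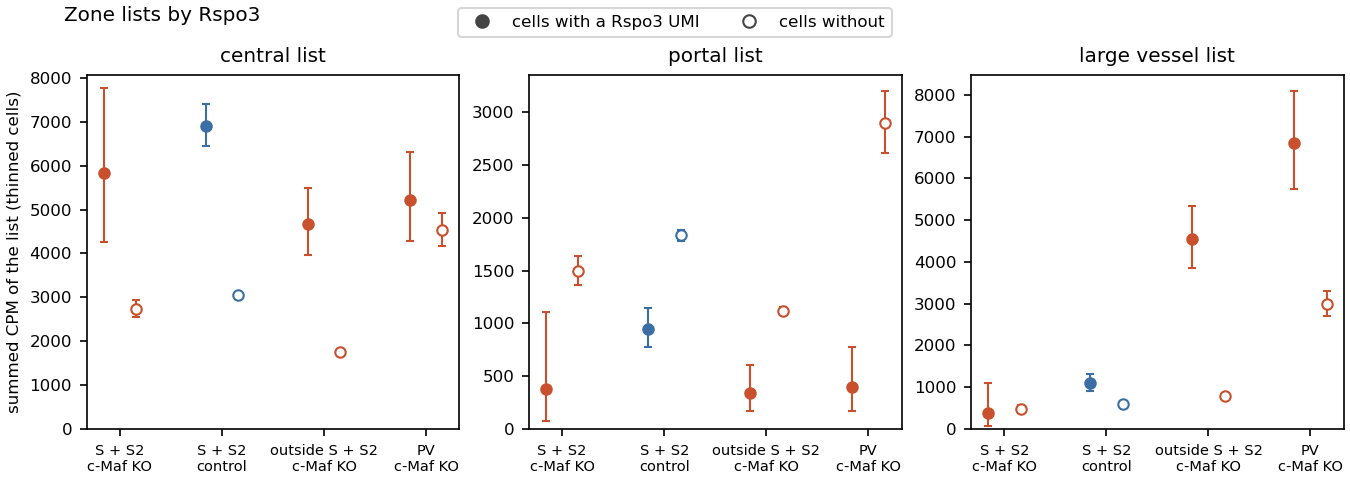
Summed level in CPM of the central, portal and large vessel lists in cells with a Rspo3 UMI (filled) and without one (open), all cells thinned to 1128 UMIs, with 95% Poisson intervals, for c-Maf KO S and S2, control S and S2, c-Maf KO endothelial cells outside S and S2, and c-Maf KO PV. The central list is higher in cells with Rspo3 in the first 3 groups, and the portal list is lower in all 4.

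Among the genes for secretion and reception, Wls, which carries Wnt proteins to the cell surface, fell to 91.2 CPM in c-Maf KO cells, against 162.5 CPM in control endothelial cells (log2 ratio -0.83, -0.92 to -0.75). It was 83.7 CPM in KOS_1 and 52.7 CPM in KOS_2, while within S, S2 and PV its ratios of 0.38, -0.02 and -0.11 were not called. Lrp5 fell likewise, to 39.9 CPM in c-Maf KO cells, against 83.9 CPM in control cells (-1.07, -1.20 to -0.95), with 38.3 CPM in KOS_1 and 91.0 CPM in control S2. Fzd4, a Frizzled receptor of endothelial cells, stood apart from both: it was 170.1 CPM in c-Maf KO and 181.4 CPM in control endothelial cells (-0.09, -0.16 to -0.02), and 180.5 CPM in KOS_1. Its lowest level was 85.6 CPM in KOS_2 and its highest 259.3 CPM in c-Maf KO S2. Lrp5 was also found in cluster K, where the Kupffer cell markers were high, at 32.6 CPM in c-Maf KO and 46.8 CPM in control cells.

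The feedback inhibitors did not move together. Nkd1, which binds Dishevelled, fell to 12.2 CPM (277 UMIs) in c-Maf KO cells, against 34.4 CPM (558 UMIs) in control cells (log2 ratio -1.49, -1.70 to -1.28). It stood at 9.10 CPM (7.60 to 10.8) in KOS_1 and 34.7 CPM (31.4 to 38.3) in control S2, and at 36.0 and 34.8 CPM in c-Maf KO and control S. Axin2, a scaffold of the beta-catenin destruction complex, was near the limit of detection, with 19 UMIs in c-Maf KO and 35 UMIs in control endothelial cells (-1.34, -2.25 to -0.51). Among all clusters with at least 50 cells its highest level was outside the endothelium, in T-Foxp3, at 16.1 CPM in c-Maf KO and 19.5 CPM in control cells. Apcdd1, a membrane inhibitor of Wnt signalling, was the member that rose, to 173 UMIs (7.65 CPM) in c-Maf KO cells, against 19 UMIs (1.17 CPM) in control cells (2.68, 2.02 to 3.48). In cells typed by sex-linked genes the ratio was 4.45 (2.89 to 7.83) in female-type cells, while in male-type cells it was 1.11 (-0.26 to 2.51) from 21 UMIs, too few for a call. It was found in KOS_1 at 7.75 CPM (109 UMIs in 91 cells), in KOS_3 at 12.4 CPM and in c-Maf KO PV at 22.4 CPM (25 UMIs in 18 cells), against 1 UMI in control PV. In S, Apcdd1 had 4 UMIs in c-Maf KO and 1 UMI in control cells (3.44, 0.52 to 9.48). In S2 it had 5 and 15 UMIs in c-Maf KO and control cells, at 5.15 and 1.28 CPM (2.09, 0.19 to 3.54). Both had too few UMIs for a call. Dkk3 had 9 UMIs in c-Maf KO and 49 UMIs in control endothelial cells (-2.86, -4.13 to -1.88). No Dkk3 UMI lay in the 14059095 UMIs of KOS_1, which allows up to 0.213 CPM, against 3.33 CPM (2.37 to 4.56) in control S2. Without cells with a stellate marker UMI only 15 Dkk3 and 11 Axin2 UMIs were left, too few for a call.

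The 2 pooled mice of each library could be followed in part, since cells with an Xist UMI and none of 4 Y-linked genes are female-type and the reverse are male-type. The c-Maf KO library had 1692 female-type and 328 male-type endothelial cells, and the control library 772 female-type and 846 male-type ones. Typed c-Maf KO cells of S and S2 were 247 female-type and 0 male-type, which allows a male-type share of up to 1.21%, whereas male-type cells were 54.6% (827 cells) of the typed control cells of S and S2. Maf stood at 208.8 CPM in female-type and 4.37 CPM in male-type c-Maf KO endothelial cells, against 1893.1 and 2416.6 CPM in female-type and male-type control cells. Wnt2 was low in both types, at 50.2 CPM in female-type c-Maf KO and 378.6 CPM in female-type control cells (log2 ratio -2.91), and at 45.0 CPM in male-type c-Maf KO and 390.8 CPM in male-type control cells (-3.11). In KOS_1 Wnt2 was 18.8 CPM (16.2 to 21.7) in 920 female-type and 36.1 CPM (28.5 to 45.0) in 208 male-type cells.

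Rspo3 was called lower in female-type cells and neither way in male-type cells. It stood at 25.9 CPM in female-type c-Maf KO and 83.8 CPM in female-type control cells (log2 ratio -1.69, -1.88 to -1.51), and at 92.4 CPM in male-type c-Maf KO and 69.6 CPM in male-type control cells (0.41, 0.18 to 0.63). Of the 275 Rspo3 UMIs of male-type c-Maf KO cells, 219 lay in 30 PV cells. In female-type PV cells alone the ratio was 0.32 (0.01 to 0.65), at 405.6 CPM in c-Maf KO and 323.6 CPM in control cells. The 9 male-type control PV cells had 0 Rspo3 UMIs, nor any Wnt2 UMI, where 30 male-type c-Maf KO PV cells had Wnt2 at 176.0 CPM. In female-type PV cells Wnt2 was 58.7 CPM in c-Maf KO and 122.4 CPM in control cells (-1.06, -1.70 to -0.42). Whether the types differ was not tested, since each pool held 1 mouse of each sex.

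The wider pathway was described with a list of 103 genes that includes the 10. Without them 93 genes remained, of which 47 had enough UMIs in endothelial cells; 8 were called higher, 13 lower and 26 neither way, with a median log2 ratio of -0.25, beside the 14.2% higher and 15.5% lower of all genes. Among receptors, Lrp6, the paralog of Lrp5, fell to 72.2 CPM in c-Maf KO cells, against 150.3 CPM in control cells (-1.06), Adgra2 to 40.5, against 76.5 CPM (-0.92), and Fzd1 was at 20 and 31 UMIs in c-Maf KO and control cells (-1.10). Porcn, which acylates Wnt proteins, was lower (-0.81), as was Wnt4 (36 UMIs in c-Maf KO and 57 UMIs in control cells, -1.13), and Notum, a secreted enzyme that removes the acyl group, was higher (42 and 15 UMIs in c-Maf KO and control cells, 0.98). Of the nuclear factors, Tle1 (-1.52) and Tcf7l1 (-0.90) fell while Tle3 (0.95) and Tcf7 (0.93) rose. Of other inhibitors Dact1 rose, to 10.8 CPM in c-Maf KO cells, against 1.23 CPM in control cells (3.10, 2.47 to 3.87), and Sfrp2 (-1.09), Kremen1 (-0.88) and Nkd2 (-0.65) fell. Inside the cell Ctnnbip1, an inhibitor of beta-catenin, rose (0.90) and Dvl2 fell (-0.59). Among genes known as targets of the pathway, Myc (2.06), Ccnd1 (0.93) and Plvap (0.62) rose, and Tbx3 (-1.07) and Cldn5 (-1.01) fell. What these targets say of pathway activity was not tested. Within S and S2 Plvap went the other way, at 62.7 CPM in c-Maf KO and 161.2 CPM in control cells. In PV, Sfrp2 stood at 47.4 CPM in c-Maf KO and 182.0 CPM in control cells, Wnt4 at 6.27 and 69.1 CPM, and Tbx3 at 12.5 and 69.1 CPM. In S and S2 each of them was at 1.65 CPM or less in both libraries. The part of the stellate transcripts of PV in their falls was not tested. Myc and Ccnd1 are also genes of dividing cells, and the 5 cycling markers summed to 459.7 CPM in c-Maf KO and 147.2 CPM in control endothelial cells. In S and S2 these markers summed to 42.3 CPM in c-Maf KO and 29.3 CPM in control cells. There Myc stood at 24.0 and 10.9 CPM and Ccnd1 at 465.8 and 283.0 CPM in c-Maf KO and control cells. The part of dividing cells in the rise of Myc and Ccnd1 was not tested.

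The genes whose levels over the 11 groups of cluster and library with at least 50 cells were most like a ligand's were ranked by Pearson's r of log2(CPM + 1), among 9926 genes. For Wnt2 they were Cyp26b1, Ifitm10, Slc7a7, Mylip and Tmem140, with r of 0.98 to 0.99. Cyp26b1, which degrades retinoic acid, stood at 16.3 CPM in c-Maf KO and 205.1 CPM in control endothelial cells. For Rspo3 they were Phc2, Ctnnal1, Ykt6, Smim20 and Jam2 (0.92 to 0.95), and for Wnt9b Itm2c, Anxa3, Ankrd33b, Il17rd and Unc119b (0.93 to 0.94), all of them highest in PV of 1 library or the other. The 11 groups share the 2 libraries and their cells were clustered on expression, so that these values describe the groups only.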

How the data were processed

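Single-cell RNA-seq of sorted mouse liver cells was used, with 1 c-Maf KO and 1 control library. The deposited tables hold UMI counts per gene and cell, not normalized. The submitters' processing notes name the mm10 build, Seurat 3.2.3, FastQC 0.11.3 and Cell Ranger 4.0.0, and no label states the counting parameters. A deposited table gives each annotated cell's cluster (23 clusters, 15835 cells) and its percent of mitochondrial UMIs, at most 20.0. Clusters were taken as deposited, and cells outside the annotation were left out. The libraries shared 21 barcodes among annotated cells.

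UMIs were summed per library and cluster and divided by the total (CPM). Log2 ratios are c-Maf KO over control with 0.5 UMIs added to each sum. Intervals are exact at 95% (Poisson for levels, Clopper-Pearson for shares, conditional binomial for ratios) and cover counting error only, and a count of 0 is limited by 3 counts. Clusters were compared where both libraries had at least 50 cells. Python 3.11.15, NumPy 2.4.6, SciPy 1.17.1, pandas 2.3.3, Scanpy 1.11.5 and Matplotlib 3.10.9 were used, and the calculations were tested on simulated data. Besides the 10 genes, the text names up to 3 higher and 3 lower called genes of each role in the wider list and the 5 genes most like each ligand among those with at least 200 endothelial UMIs. The genes and lists were chosen with earlier results of these data known. Alternatives changed the scaling, thinning, call limits, cells and clusters used.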

Additional observations from a re-analysis of the deposited data

Results flagged for a closer look

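Rspo3 differed between the libraries in opposite directions by cluster, with a log2 ratio (c-Maf KO over control) of 0.96 in PV, -2.10 in S and -2.10 in C-EC. The log2 ratio of Rspo3 also differed in sign between the female-type cells (-1.69, called lower) and the male-type cells (0.41, called neither way) of the endothelium. That of Wnt9b was -0.82 for female-type cells, called lower, and 1.28 for male-type cells, where 26 UMIs in c-Maf KO and 21 UMIs in control cells were too few for a call. None of these differences between groups was tested, since each library stands once. The 12 stellate markers summed to 594.4 CPM in c-Maf KO and 1446.5 CPM in control PV cells, and the PV ratio of Rspo3 was -0.04 without cells that carried one of their UMIs.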

How the results depend on the processing

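No paired analysis was possible because each group has 1 library. Under 16 alternatives to the ratios over all endothelial cells, the calls of Wnt2, Wls, Lrp5, Nkd1 and Fzd4 held in 16, that of Rspo3 in 15, Apcdd1 in 14, Wnt9b in 13, Dkk3 in 9 and Axin2 in 7. Changed call limits are not among these 16. Wls, which was 1.78-fold lower, did not reach the alternative limit of 2-fold. Where Axin2, Apcdd1 and Dkk3 lost their call, under 50 UMIs were left. Some of their ratios also shrank: Axin2 was at -0.09 (4 UMIs) and Apcdd1 at 2.23 after thinning, and Apcdd1 at 1.11 in male-type cells. The log2 ratio of Wnt2 was -2.75 with mitochondrial, ribosomal protein and hemoglobin genes left out of the total, -2.81 with a median-of-ratios size factor (which takes out the median log2 ratio of all genes, -0.10), -2.60 as a mean of per-cell CPM, -2.73 after thinning, -3.18 without cells with a stellate marker UMI, -3.11 in male-type cells, -2.79 without C-EC, -3.82 without the c-Maf KO cells of S and S2, and -3.02 without PV. That of Rspo3 was -0.92 with the reduced total, -1.26 per cell, -2.25 without stellate marker cells, -1.69 for female-type cells, 0.41 for male-type cells, -0.93 without C-EC, -2.87 in the sinusoid-named clusters and -2.85 without PV. That of Wnt9b was -0.82 for female-type cells and 1.28 for male-type cells. Of the 10 genes, 0 were higher after thinning, where Apcdd1 kept 14 UMIs, and 0 higher and 4 lower in male-type cells.

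Within clusters, Rspo3 was -4.16 in S without its richest cell and -3.97 without stellate marker cells, 1.49 and -0.04 under the same changes in PV, and -4.31 in C-EC without stellate marker cells, where it had 12 UMIs. Wnt2 in PV was -0.72 without stellate marker cells. In C-EC the calls of Lrp5 (-0.52), Nkd1 and Rspo3 were lost without the richest cell, and those of Wls (-0.45), Lrp5 (-0.44), Nkd1 and Rspo3 without stellate marker cells, with under 50 UMIs of Nkd1 and Rspo3 in both. The share of cells with at least 2 of the 3 ligands was 0.688% in c-Maf KO and 2.67% in control cells thinned to 1128 UMIs, 1.82% and 6.26% in c-Maf KO and control cells at 3000 UMIs, 1.71% and 3.93% with 2 UMIs of each gene required, and 1.74% and 6.41% without stellate marker cells. Wnt2 among cells with Rspo3 was 44.4% in c-Maf KO and 56.5% in control cells after thinning, and in control cells 80.6% with 2 UMIs required and 80.0% without stellate marker cells. The causes of these shifts were not tested. Leaving out doublets called by Scrublet was not run, because its automatic threshold marked 148 c-Maf KO cells and 1 of 7669 control cells. Leaving out the top 5% of its score, and leaving out PV, were chosen after seeing the data. Depth limits Axin2, Dkk3 and Wnt9b, and 1 library per group limits every comparison.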

Other observations

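Outside the endothelial clusters, Wnt2 was found in the deposited clusters D and H, at 75.3 CPM in c-Maf KO and 208.6 CPM in control cells of D, and at 180.0 CPM (18 cells) in c-Maf KO and 282.1 CPM (66 cells) in control cells of H. Rspo3 stood at 41.6 CPM in c-Maf KO and 15.5 CPM in control cells of D. Wls stood at 105.0 CPM in c-Maf KO and 77.7 CPM in control cells of D. What D and H abbreviate is not stated in the labels.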
